A study of Sus scrofa with 6 samples.

Results

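KRT8 and KRT18 encode keratin 8 and keratin 18, the type II and type I keratins of simple, single-layered epithelia. They are 2 genes of a table of 20523 transcript rows. KRT8 was taken as the row ENSSSCT00000000271, described as the type II cytoskeletal keratin 8 of the pig, and KRT18 as the row described as the type I cytoskeletal keratin 18, of which there was 1 (ENSSSCT00000000272). Messenger RNA was sequenced from whole Large White pig embryos at 17.5 to 18.0 days post coitum. The 3 WT embryos are labelled wild type (qq in the file headers), and the 3 QQ embryos are homozygous for 2 quantitative trait nucleotides, in a study of how the gene VRTN bears on the number of thoracic vertebrae. The labels name no treatment, and a whole embryo keeps no tissue apart. No litter or dam is named, and p-values therefore speak only of how far these 6 embryos spread.

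A keratin filament is built from pairs of 1 type II and 1 type I chain, and in simple epithelia keratin 8 is the usual type II chain, with keratin 18 or keratin 19 as its type I partner. A chain left without a partner is degraded. In the early embryo these keratins are among the first intermediate filament proteins made, and they are found in trophoblast, surface ectoderm, gut endoderm, mesothelium and notochord. Whole embryos mix several of these tissues, so fewer epithelial cells and less keratin RNA per cell cannot be told apart.

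Each library held between 12.2 M and 13.5 M uniquely mapped reads (M, mega-reads). WT replicate 3 stood apart: it lay at -61.7 on the first principal component of the 13957 tested rows (57.7% of the variance), against -9.12 to 29.99 for the other 5 libraries. VRTN had 0 reads in each WT library and 2, 0 and 1 in QQ replicates 1 to 3, so the genotype labels could not be checked through it. Fold changes of KRT8 and KRT18, and majorities in the gene lists that change without WT replicate 3, are given both ways. Shares of all rows, and the likeness of other rows to the keratins, are given only with it.

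KRT8 was among the most abundant RNAs of these embryos. Its level per length, in RPKM (reads per kilobase of transcript, scaled to the mapped reads of the library), was 4120.4, 3800.5 and 4533 in WT replicates 1 to 3, against 3811, 3017 and 3523 for QQ replicates 1 to 3. The highest QQ embryo, replicate 1, lay just above the lowest WT embryo, replicate 2, so the genotypes overlapped by a narrow margin. By RPKM, KRT8 ranked 9th to 11th of all rows in every library. The row drew 64869 to 104191 reads per library, and its share of all mapped reads ran from 0.516% in QQ replicate 2 (95% Wilson interval 0.512% to 0.520%) to 0.775% in WT replicate 3 (0.770% to 0.779%). These intervals are narrow beside the spread between embryos and cover counting error only.

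KRT18 was the less abundant of the pair per length. Its values were 1684, 1508 and 1966 RPKM in WT replicates 1 to 3, against 1404, 1144 and 1279 RPKM for QQ replicates 1 to 3. Every QQ embryo lay below every WT embryo. Its rank by RPKM was between 57 and 73, and its row held 20294 to 37272 reads. WT replicate 3 was the highest library for both genes, and QQ replicate 2 the lowest for both. Reads covered 99.8% to 99.9% of the KRT8 row of 1709 bp, but 88.3% to 88.4% of the KRT18 row of 1410 bp in 5 libraries and 91.7% in QQ replicate 3. Keratin 8 and 18 genes have processed copies elsewhere in mammalian genomes, and among uniquely mapped reads those that fit a copy equally well are lost, so the absolute levels are uncertain.

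**Figure D1:**
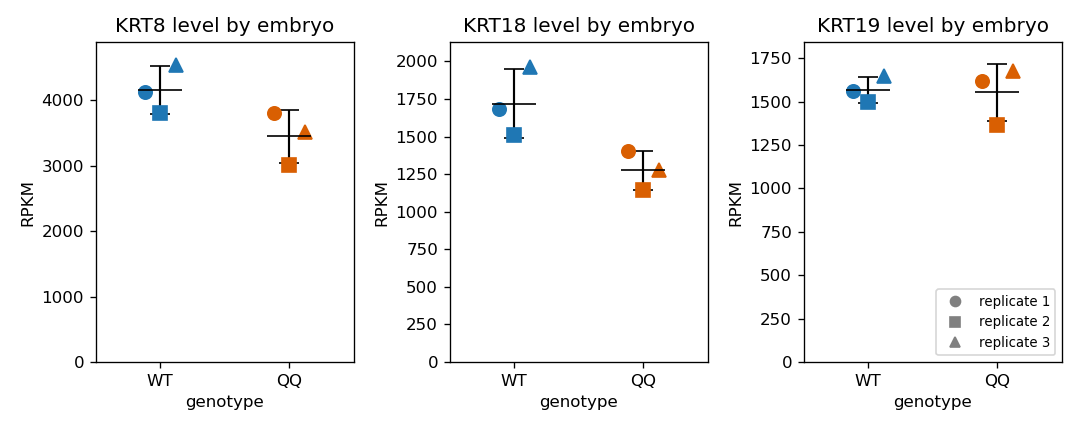
RPKM of KRT8, KRT18 and KRT19 in each embryo by genotype, with replicates marked by shape, the group mean as a long bar and 1 SD as whiskers (n = 3). KRT18 in QQ embryos sits between 1144 and 1404, below all WT embryos (1508 to 1966), while KRT8 overlaps narrowly and KRT19 overlaps widely.

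KRT18 averaged 1719 ± 231 RPKM in WT, against 1276 ± 129.8 RPKM in the QQ embryos (SD, n = 3 each), 25.8% lower in QQ. Its log2 fold change was -0.53 ± 0.15 (SE), and the unadjusted p of edgeR's quasi-likelihood test was 0.00684. After Benjamini-Hochberg adjustment over the 13957 rows this edgeR p was 0.233, so KRT18 did not pass. KRT8 averaged 4151 ± 367 and 3451 ± 402 RPKM, with a log2 fold change of -0.36 ± 0.14. Its unadjusted edgeR p was 0.0333, with the same edgeR adjusted p of 0.233. Quantile normalization turned its fold change to 0.05. That method gives each rank the same value in every library. KRT8 ranked 9th to 11th throughout, so beside rows of like rank its level was not lower in QQ embryos. The value 0.233 was the smallest adjusted p of any row, and edgeR called 0.00% of rows lower and 0.00% higher at an adjusted p of 0.05. Before adjustment, 9.30% of rows were lower and 11.0% higher with p under 0.05, so both keratins lie in a class that holds many rows. In 9.07% of tested rows every QQ embryo lay below every WT embryo in RPKM, as for KRT18. On log2(RPKM + 0.5), a two-sided exact permutation test gave p = 0.1 for KRT18 and p = 0.2 for KRT8, where 0.1 is the smallest that 3 against 3 embryos allow.

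The overlap of the KRT8 groups depended on the scaling. After TMM scaling, which corrects library size for a few dominant genes, KRT8 stood at 7142, 6602 and 8302 CPM (counts scaled to the library's total, not divided by length) in WT and at 6587, 4847 and 5733 CPM in QQ embryos, so that the groups just separated between WT replicate 2 and QQ replicate 1. KRT18 stood at 2409, 2162 and 2970 CPM in WT and 2002, 1517 and 1717 CPM in QQ embryos, separated as before. Without WT replicate 3 the log2 fold changes were -0.39 for KRT18 and -0.27 for KRT8, with edgeR adjusted p = 0.288 and 0.387. The unadjusted edgeR p was then 0.0119 for KRT18 and 0.0636 for KRT8, so KRT8 was no longer under 0.05. The order of the embryos by KRT18 in CPM (WT 3, WT 1, WT 2, QQ 1, QQ 3, QQ 2) was that of the first principal component apart from the last pair, at 29.99 and 28.9 on that axis for QQ replicates 3 and 2. Its part in the keratin difference was not tested.

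**Figure D2:**
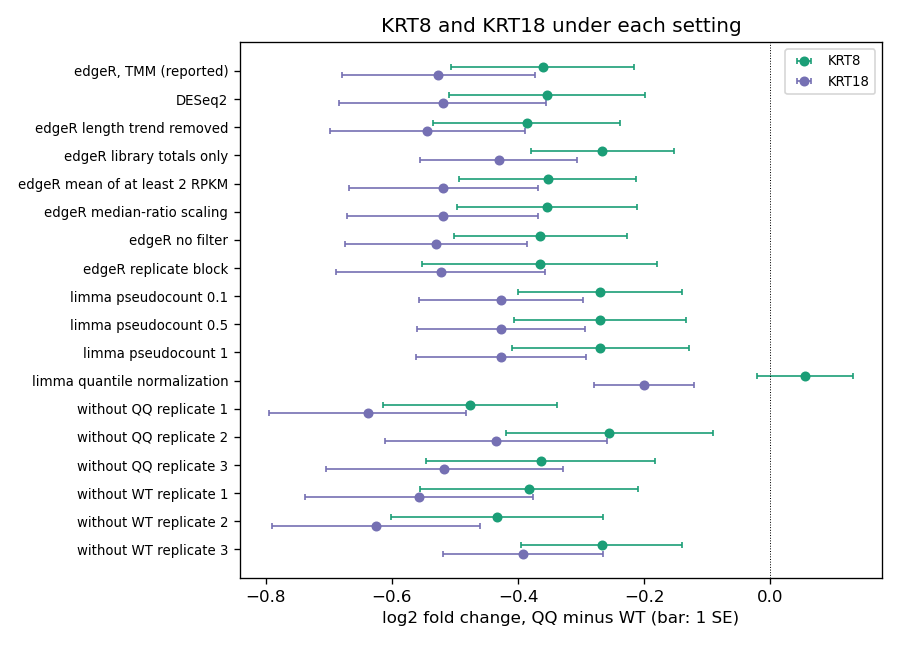
Log2 fold change (QQ minus WT) of KRT8 and KRT18 with 1 SE under the reported edgeR fit and 17 alternatives. KRT18 stays below 0 throughout (-0.64 to -0.20), and KRT8 is below 0 in all but quantile normalization (0.05).

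KRT19, the other type I partner of keratin 8, differed less between the genotypes. Its row is described as a 19-like keratin. It stood at 1563, 1499 and 1647 RPKM in WT, against 1618, 1368 and 1679 RPKM in the QQ embryos, with means of 1569.8 ± 74.7 and 1555 ± 165 RPKM (SD, n = 3 each). The highest and the lowest of the 6 embryos were both QQ. Its log2 fold change was -0.11 ± 0.13 (edgeR adjusted p = 0.624), and 0.25 ± 0.10 under quantile normalization. In the order of levels per length KRT8 came first by a wide margin, while KRT18 and KRT19 were neighbours that changed places: KRT18 was the higher of the 2 in each WT embryo and the lower in each QQ embryo. In WT replicate 2 they were nearly level (1508 and 1499 RPKM). The KRT18 row was only partly covered, so which of the 2 was higher is uncertain.

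Ratios within a library are free of library scaling, and those to KRT19 were chosen after its values were seen. The ratio of KRT18 to KRT19 in RPKM was 1.08, 1.01 and 1.19 in WT replicates 1 to 3, against 0.868, 0.836 and 0.762 for QQ replicates 1 to 3. The ratio of KRT8 to KRT19 was 2.64, 2.54 and 2.75 in WT and 2.36, 2.21 and 2.098 in QQ embryos. Both ratios were lower in every QQ embryo than in any WT embryo, also for KRT8, whose RPKM alone overlapped. Of all tested rows 5.30% had a ratio to KRT19 that was lower in every QQ embryo. The log2 ratio differed by -0.41 for KRT18 and by -0.25 for KRT8 (QQ minus WT). For each, an exact two-sided permutation test gave p = 0.1, the smallest possible, and 0.133 after Benjamini-Hochberg adjustment over the 4 ratios computed.

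Between the genotypes, KRT18 had the larger proportional difference of the pair, with a log2 fold change of -0.53 against -0.36 for KRT8. The ratio of KRT8 to KRT18 was 2.45, 2.52 and 2.31 in WT and 2.71, 2.64 and 2.75 in QQ embryos, with means of 2.42 ± 0.11 and 2.70 ± 0.059 (SD, n = 3 each). Every QQ embryo lay above every WT embryo, and the ratio was 1.12-fold higher in QQ (exact two-sided permutation p = 0.1, adjusted 0.133). That separation was common: 53.8% of tested rows had a ratio to KRT18 that was higher in every QQ embryo.

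Set against both type I partners together, KRT8 overlapped between the genotypes. Its RPKM was 1.27, 1.26 and 1.25 times the sum of KRT18 and KRT19 in WT replicates 1 to 3, a spread of 0.0071 (SD, n = 3). In QQ replicates 1 to 3 it was 1.26, 1.20 and 1.19 times that sum, a spread of 0.038 (SD, n = 3). The overlap rests on QQ replicate 1, which lay above WT replicate 3 (exact two-sided permutation p = 0.2). QQ replicates 2 and 3 lay below every WT embryo. These are RNA levels, and the KRT18 row was only partly covered, so the ratio is not one of protein chains.

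**Figure D3:**
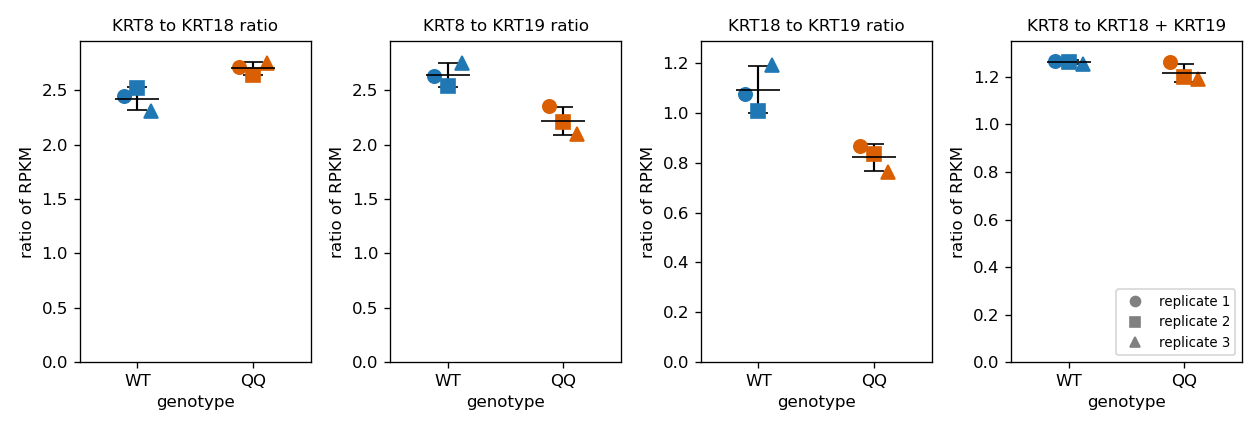
Ratios of RPKM within each embryo, for KRT8 to KRT18, KRT8 to KRT19, KRT18 to KRT19 and KRT8 to the sum of KRT18 and KRT19, with the group mean as a long bar and 1 SD as whiskers (n = 3). The first 3 ratios separate the genotypes, and the last one overlaps (1.25 to 1.27 in WT, 1.19 to 1.26 in QQ).

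KRT8 and KRT18 went up and down together over the 6 embryos. In log2 CPM after TMM scaling Pearson's r was 0.983 (exact permutation p = 0.00417) and Spearman's rho 1.00 (exact permutation p = 0.00278), with adjusted values of 0.0125 and 0.00833 over the 3 keratin pairs compared. Without the 2 embryos farthest from the KRT8 median, WT replicate 3 and QQ replicate 2, r was 0.973 over 4 embryos (exact permutation p = 0.0417; on RPKM in log2 0.962, p = 0.125). Over all 6 embryos r on RPKM in log2 was 0.971 (exact permutation p = 0.00556). KRT19 followed less closely: r was 0.873 with KRT8 and 0.785 with KRT18 (exact permutation p = 0.0333 and 0.0681, adjusted 0.05 and 0.0681). Spearman's coefficient was 0.543 for each (exact permutation p = 0.297). Without the same 2 embryos both correlations of KRT19 turned negative, at -0.15 and -0.34, so they rest on those embryos. In CPM KRT8 and KRT18 were both lower in every QQ embryo, so their r includes the difference between the genotypes. The permutations took no account of genotype. A genotype holds 3 embryos, too few for a value within it.

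**Figure D4:**
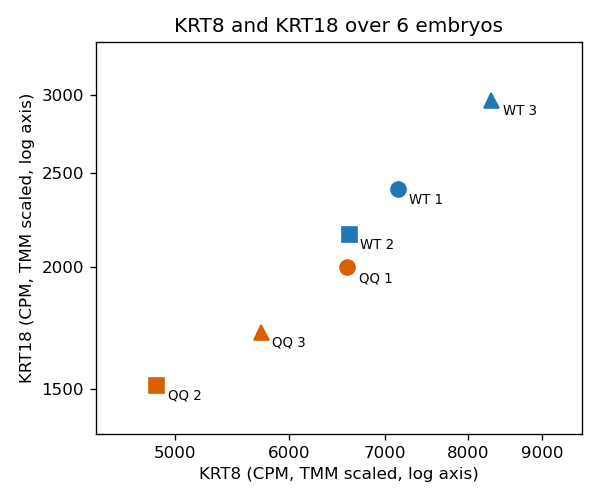
KRT18 against KRT8 in each of the 6 embryos, in CPM after TMM scaling, on log axes. The points form 1 line from QQ replicate 2 (4847 and 1517 CPM) to WT replicate 3 (8302 and 2970 CPM), and WT replicate 2 and QQ replicate 1 meet in the middle.

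The shared course of KRT8 and KRT18 was not theirs alone. Of 3734 other rows with a symbol and a mean of at least 10 RPKM, 507 (13.6%) had a mean Pearson r of at least 0.9 with the 2 keratins over the 6 libraries. Among the 5 closest were BAX, a pore-forming protein of apoptosis, WDR46, a nucleolar protein, MAGED1, an adaptor of the MAGE family, and RAB7A, a GTPase of late endosomes, with mean r from 0.988 to 0.989. KRT19 ranked 952nd by this measure, with a mean r of 0.829. BAX averaged 57.97 ± 7.09 RPKM in WT, against 47.5 ± 4.26 RPKM in the QQ embryos (log2 fold change -0.38 ± 0.16, edgeR adjusted p = 0.234). Because BAX was chosen for its likeness to KRT8 and KRT18, both lower in QQ, its own lower values are not a separate result.

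Those keratins of stratified epithelia, hair and hair follicle that had a row were nearly absent. Of 49 keratins listed beside the simple ones, 23 had a row matched to them, and the rest could not be assessed. The table held 30 further rows described as keratins. Of these, 2, KRT10 and KRT14, had enough reads to be tested (1 higher and 1 lower in QQ, and both higher without WT replicate 3). KRT8, KRT18 and KRT19 made up 99.9% of the reads in rows described as keratins in each library. All 30 rows together held 110 to 158 reads per library. KRT10, a keratin of differentiating epidermis, was the only one with a mean of at least 1 RPKM, at 2.75, 2.81 and 3.59 RPKM in WT, against 3.62, 3.65 and 3.76 RPKM in the QQ embryos. Its QQ values all lay above its WT values in RPKM, and 18.8% of tested rows were higher in every QQ embryo in this way. In CPM after TMM scaling the genotypes overlapped, and the log2 fold change of KRT10 was 0.17 ± 0.21 (edgeR adjusted p = 0.630). KRT14 and KRT5, the pair of the basal epidermis, named here for that role after their values were seen, had 5 to 17 and 0 to 8 reads per library. KRT7 was not analysed here, and KRT20, the remaining simple keratin, had 0 to 3 reads per library.

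In the RefSeq gene order of Sscrofa11.1, a later build than the Sscrofa10.2 used for the reads, KRT8 and KRT18 are neighbours with 0 protein-coding genes between them. Most mammalian type II and type I keratin genes sit in separate clusters, and KRT18 is the type I gene that lies at the end of the type II cluster. Next to KRT8 on its other side come KRT78, KRT79, KRT4 and KRT3. KRT79 and KRT3 had rows, with at most 1 and 2 reads in any library, against at least 64869 for KRT8 and 20294 for KRT18.

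Gene lists around the 2 keratins were read from the same fit. In each of the lists below 0 members passed edgeR at an adjusted p of 0.05, and DESeq2 called 0 as well (smallest adjusted p = 0.0761). Before adjustment edgeR placed, with p under 0.05, 0 to 2 members of a list lower and 0 to 2 higher, against 9.30% and 11.0% of all tested rows. With 6 to 30 tested members a list, such counts are read as no result about the lists.

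Of the other intermediate filament genes more were lower than higher in QQ embryos under each scaling tried except library totals only. Of 13 tested members 10 had lower and 3 higher values in QQ embryos. The median log2 fold change was -0.08, against -0.003 over all tested rows, of which 50.3% were lower. With library totals only the split was 6 lower and 7 higher, and the median was 0.014, against 0.093 over all tested rows. VIM, the vimentin of mesenchymal cells, stood at 1068 ± 50.7 RPKM in WT, against 1112 ± 244 RPKM in the QQ embryos, LMNB1 of the nuclear lamina at 311 ± 24.2 and 329 ± 34.3 RPKM, and LMNB2 at 96.3 ± 2.71 and 97.2 ± 0.855 RPKM. Per length KRT8 and KRT18 both lay above VIM in each of the 6 embryos.

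Desmosomes anchor keratin filaments at cell contacts, and plakins link the filaments to them. In this list 9 of 13 tested members had higher and 4 lower values in QQ embryos, and the median log2 fold change was 0.27. The median was 0.098 without WT replicate 3, and with each library's trend with transcript length removed it was -0.11, with 5 members higher and 8 lower. DSP, the plakin that binds keratin 8 and 18, stood at 125 ± 14.4 RPKM in WT, against 143 ± 21.3 RPKM in the QQ embryos. PKP2, plakophilin 2, stood at 83.4 ± 22.6 and 120.4 ± 23.7 RPKM, and DSC2, a desmosomal cadherin, at 76.6 ± 18.9 and 98.6 ± 12.4 RPKM. WT replicate 3 held the lowest value of each of the 3 genes, at 110.04, 57.4 and 54.9 RPKM, the library in which KRT8 and KRT18 were highest.

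Genes of epithelial identity divided differently by scaling. Of 30 tested members 16 had lower and 14 higher values in QQ embryos (median log2 fold change -0.06; with library totals only 14 lower and 16 higher, with the length trend removed 18 and 12, and under quantile normalization 20 and 10). With library totals only the median of the list was 0.036, against 0.093 over all tested rows. In RPKM 3 lay lower in every QQ embryo and 6 higher in every QQ embryo, shares near the 9.07% and 18.8% of all tested rows, and 1 of the 6, ESRP1, was level at 13.5 RPKM in WT replicate 1 and QQ replicate 1. EPCAM, an adhesion protein of embryonic epithelia, averaged 73.3 ± 0.10 RPKM in WT, against 81.7 ± 10.3 RPKM in the QQ embryos (log2 fold change 0.06 ± 0.11). CLDN6, a claudin of embryonic tight junctions, averaged 120.2 ± 25.9 and 110.8 ± 20.04 RPKM, and SPINT2, a protease inhibitor of epithelia, 72.7 ± 1.88 and 73.3 ± 3.17 RPKM. CDH1, the cadherin of epithelial adherens junctions, was picked after its values were seen. It stood at 21.7, 17.4 and 14.7 RPKM in WT, against 24.6, 22.2 and 35.3 RPKM in the QQ embryos. In RPKM it was higher in each QQ embryo, but in CPM after TMM scaling the genotypes overlapped (log2 fold change 0.52 ± 0.20, edgeR adjusted p = 0.233).

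**Figure D5:**
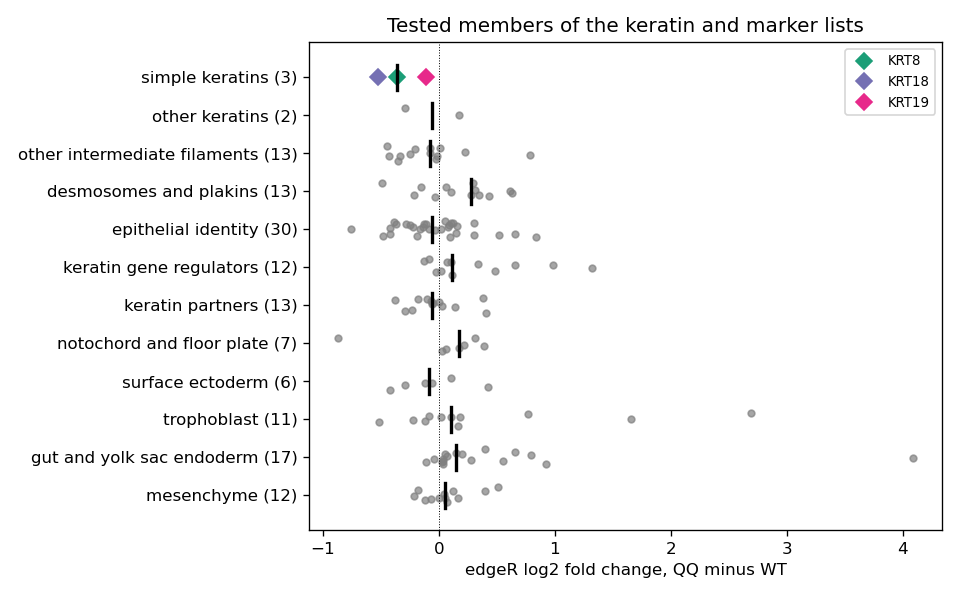
Log2 fold change (QQ minus WT, edgeR) of each tested member of 12 gene lists, 1 point per gene, with the list median as a vertical bar and the number of tested genes in brackets. KRT18 and KRT8 lie at -0.53 and -0.36, and quantile normalization moves KRT8 to 0.05. The medians of the lists without them run from -0.09 to 0.27, and single genes of those lists from -0.87 (NOTO) to 4.09 (APOB).

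Regulators known to act on simple keratin genes come from the AP-1, ETS, SP1, KLF and AP-2 families. Of 12 tested members 9 had higher and 3 lower values in QQ embryos (median log2 fold change 0.11, and 0.23 without WT replicate 3), but under quantile normalization 5 were higher and 7 lower. JUN, an AP-1 subunit, stood at 100.2, 115 and 101 RPKM in WT, against 170.4, 63.1 and 71.1 RPKM in the QQ embryos. FOS, its partner, stood at 81.8, 139.7 and 219 RPKM in WT, against 323, 47.6 and 98.9 RPKM in the QQ embryos. Both spread widely between single embryos, being highest in QQ replicate 1 and lowest in QQ replicate 2, the highest and the lowest QQ embryos for KRT8 and KRT18. Among WT embryos JUN was highest in replicate 2, where both keratins were lowest in WT. FOS was highest in WT replicate 3, as both keratins were, but lowest in WT replicate 1. Whether the keratins follow JUN or FOS was not tested. TFAP2A, an AP-2 gene, ran only from 6.61 to 9.93 RPKM over the 6 embryos. ETS1 averaged 27.5 ± 9.11 and 36.8 ± 3.15 RPKM.

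Proteins that bind or cut keratins 8 and 18 gave 8 lower and 5 higher values among 13 tested genes, with a median log2 fold change of -0.06 that turned to 0.04 with library totals only and 0.07 under quantile normalization. Over all tested rows these 2 settings gave medians of 0.093 and -0.043. The 14-3-3 proteins, which bind phosphorylated keratin 18, were the most abundant: YWHAQ averaged 533 ± 50.7 RPKM in WT, against 542 ± 28.2 RPKM in the QQ embryos, YWHAE 425.5 ± 35.4 and 439.7 ± 23.2 RPKM, and YWHAB 225 ± 3.40 and 213 ± 5.41 RPKM. YWHAB was lower in every QQ embryo, as were 9.07% of all tested rows in RPKM, and YWHAQ and YWHAE overlapped.

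Markers of the tissues that carry these keratins were measured in the same libraries. The notochord and floor plate list had 6 of 7 tested members with higher values in QQ embryos (median log2 fold change 0.17; 4 of 7 under quantile normalization). SPON1, a floor plate matrix protein, averaged 34.1 ± 6.21 RPKM in WT, against 47.7 ± 6.56 RPKM in the QQ embryos, NTN1 (netrin 1) 11.5 ± 1.77 and 14.3 ± 1.49 RPKM, and SHH (sonic hedgehog) 9.09 ± 1.14 and 10.95 ± 1.88 RPKM. NOTO, the notochord homeobox gene and the 1 member with lower values, was named after its values were seen and had 24, 19 and 32 reads in WT, against 10, 13 and 20 in the QQ embryos (log2 fold change -0.87 ± 0.36, edgeR adjusted p = 0.233). Summed over the list, levels ran from 203 to 269 CPM in WT and from 272 to 354 CPM in QQ embryos, most of it SPON1, which alone averaged 188 CPM in WT and 246 CPM in QQ embryos. The sum is therefore close to a measure of SPON1, and NOTO differed in the other direction.

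In the surface ectoderm list 4 of 6 tested members had lower values in QQ embryos, 2 of 6 without WT replicate 3, 3 of 6 with library totals only and 5 of 6 under quantile normalization. GATA3, a transcription factor also listed for trophoblast, stood at 10.9 to 13.5 RPKM in WT and 11.8 to 12.2 RPKM in QQ embryos. TFAP2A and GRHL3, transcription factors of the ectoderm, averaged 7.74 ± 1.02 and 5.51 ± 0.733 RPKM in WT, against 8.94 ± 0.877 and 4.37 ± 0.488 RPKM in the QQ embryos. GRHL3 was lower in every QQ embryo, as were 9.07% of all tested rows in RPKM. The summed levels of the list were 81.5 to 93.1 CPM in WT and 88.1 to 90.8 CPM in QQ embryos.

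Extra-embryonic tissue can carry KRT8 and KRT18, and trophoblast markers were uneven over the libraries. In this list 4 of 11 tested members had lower and 7 higher values in QQ embryos (median log2 fold change 0.11, and 0.19 without WT replicate 3; 7 lower and 4 higher under quantile normalization). HAND1, also expressed in embryonic mesoderm, averaged 93.01 ± 4.53 RPKM in WT, against 113 ± 40.5 RPKM in the QQ embryos, and CDX2, also a gene of the hindgut and tail bud, 24.1 ± 4.92 and 29.3 ± 7.27 RPKM. IFNG, an interferon that the pig trophoblast secretes around attachment, had 50, 143 and 168 reads in WT, against 1165, 44 and 1 reads in the QQ embryos. PLET1, a trophoblast surface protein, and CYP19A1, the aromatase that makes estrogen, were named after their values were seen. PLET1 had 690 reads in QQ replicate 1 and 6 to 57 in the other 5 libraries, and CYP19A1 had 0 to 6 reads, with 0 in WT replicates 2 and 3. Summed levels of the list were 242 to 268 CPM in WT and 243 to 389 CPM in QQ embryos, and none of its 13 rows stayed at or below 3 reads in all libraries. The part of trophoblast tissue in the keratin values was not tested.

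In the list of gut and yolk sac endoderm the genes with the highest levels differed widely within a genotype. Of 17 tested members 15 had higher and 2 lower values in QQ embryos (median log2 fold change 0.14, and 0.28 with 1 lower and 17 higher without WT replicate 3; 9 higher and 8 lower under quantile normalization). AFP, the fetal plasma protein of yolk sac and liver, stood at 46.3, 7.13 and 132 RPKM in WT, against 54.96, 13.2 and 319.9 RPKM in the QQ embryos. TF (transferrin) and RBP4, a carrier of retinol, averaged 61.9 ± 31.8 and 74.7 ± 46.2 RPKM in WT, against 68.9 ± 59.4 and 98.1 ± 90.5 RPKM in the QQ embryos. Transcription factors of the list varied less: FOXA2, named after its values were seen, ran from 8.09 to 8.59 RPKM in WT and from 8.47 to 10.23 RPKM in QQ embryos. Summed levels were 449.9 to 1009 CPM in WT and 429 to 1897 CPM in QQ embryos. Replicate 2 had the lowest AFP in both genotypes, and also the lowest KRT8 and KRT18, but WT replicate 3 and QQ replicate 3 were highest for AFP while only WT replicate 3 was highest for the keratins. The part of endoderm in the keratin values was not tested.

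Mesenchymal genes, the counterpart of the epithelial ones, gave 8 higher and 4 lower values among 12 tested members in QQ embryos, 6 and 6 without WT replicate 3, and 5 higher and 7 lower with the trend with transcript length removed. COL3A1, FN1 and COL1A1, genes of the connective tissue matrix, averaged 977 ± 190.0, 409 ± 97.2 and 301 ± 42.6 RPKM in WT, against 1161 ± 218, 574 ± 124 and 293 ± 117 RPKM in the QQ embryos. FN1 was lowest in WT replicate 3, at 299 RPKM. Summed levels were 7425 to 11125 CPM in WT and 9460.1 to 13727 CPM in QQ embryos.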

How the data were processed

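The deposited table of the whole series was used. Its columns give, per the file headers, the count of uniquely mapped reads of each Ensembl transcript in each library, its coverage as a percent of its length, and its RPKM. Per the submitters' processing notes the build was Sscrofa10.2. The aligner, the counting program and any use of strand were not given in the sources used here. A dash was read as 0. Counts then add up to each header total (12.2 M to 13.5 M reads), and the deposited RPKM equals count over length and total within a relative gap of 1.29e-07.

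The test was edgeR 4.0.16 in R 4.3.3 with quasi-likelihood fits, TMM factors (0.933 to 1.06), the default filter (minimum count 10, minimum total 15, 13957 rows kept) and Benjamini-Hochberg adjustment over all of them, at a threshold of 0.05. The SE is the log2 fold change over the square root of F. Symbols came from the deposited protein and KEGG matches through RefSeq tables of Sscrofa11.1, or from descriptions, for 9520 of 20523 rows; of several rows with a symbol the one with most reads was used. The members and the 12 lists (164 of 216 entries had a row) were chosen with earlier results of these data known. Named were KRT8, KRT18, other keratins with a mean of at least 1 RPKM, the 3 members of each other list with the highest mean RPKM, and the 5 rows with the most similar course, of which 1 is not reported here; exceptions are marked. Alternatives used limma 3.58.1, with pseudocounts of 0.5, 0.1 and 1, and DESeq2 1.42.0. Others were median-ratio scaling, library totals only, quantile normalization, no filter, a mean of at least 2 RPKM, the trend with transcript length removed, the replicate block and each library left out; the ratios to KRT19, and the lists without WT replicate 3, were added after seeing the data. All pairs of libraries differed by more than sampling noise.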

Additional observations from a re-analysis of the deposited data

How the results depend on the processing

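KRT18 kept a negative log2 fold change under all 17 alternatives, from -0.64 to -0.39 when each library was left out in turn and from -0.54 to -0.20 under the other settings (adjusted p from 0.0819 with DESeq2 to 0.526). KRT8 ranged from -0.48 to -0.26 without each library and from -0.39 under the other settings to 0.055 under quantile normalization (adjusted p from 0.164 to 0.679). Quantile normalization, which gives each rank the same value in every library, reversed the sign. KRT8 ranked 9th to 11th by RPKM throughout, so beside rows of like rank it was not lower in QQ embryos. With the replicate block KRT8 was at -0.37 and KRT18 at -0.52 (edgeR adjusted p = 0.332 and 0.295), 0 rows were called, and no call changed. The block moved the trophoblast markers from 4 lower and 7 higher to 6 lower and 5 higher. It moved the gut and yolk sac endoderm list from 2 lower and 15 higher to 6 lower and 11 higher. Same-numbered libraries share only a number: their deviations from the genotype means correlated at -0.19, 0.21 and -0.056, and not every library correlated best with its own number. DESeq2 called 103 rows higher and 8 lower, neither keratin among them. Leaving out 1 library gave 0 to 2 rows higher and 0 to 1 lower: 2 and 1 without QQ replicate 1, and 1 and 0 without WT replicate 3. The ratio of KRT8 to KRT18 differed by 0.12 to 0.19 in log2 without each library, KRT8 to KRT19 by -0.30 to -0.21 and KRT18 to KRT19 by -0.47 to -0.34. After quantile normalization they differed by 0.25, -0.20 and -0.45. The ratio of KRT8 to the sum of KRT18 and KRT19 differed by -0.078 to -0.037 in log2 without each library. The median of all tested rows was 0.093 with library totals only and -0.043 under quantile normalization. The alternative of another row described as keratin 18 could not be run, since the table holds 1. Counting intervals of both keratins' shares of reads were narrow beside the spread between the 3 embryos of a genotype; other limits were not ranked.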
